A study of Mus musculus with 14 samples.

Results

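The miRNA miR-142 is made from a hairpin transcript that is cut into 2 mature arms, mmu-miR-142-5p and mmu-miR-142-3p (5p and 3p below), and the counts of both arms in extracellular vesicles (EVs) from mouse plasma are described here. The 2 arms were taken by name from the probes of a NanoString nCounter mouse miRNA panel, which held 599 miRNA probes among 626 probes in all. The rule that selects them uses their names and no measured value. The 5p arm gave the highest count of any miRNA probe in all 4 sham samples and was lower in every irradiated sample, whereas the 3p arm stayed among the negative controls in all 14 samples.

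miR-142 is transcribed in blood cells of nearly all lineages and very little elsewhere, so it is used as a marker of haematopoietic RNA. It is known for roles in T cells, dendritic cells and megakaryocytes, and it is also carried by platelets. An miRNA hairpin is trimmed to a duplex of its 2 arms, one of which is usually kept by an Argonaute protein while its partner is degraded, and both arms of miR-142 have been found as functional miRNAs in leukocytes. EVs are membrane-bound particles that cells release into body fluids with part of their RNA and protein. Whole-body irradiation (WBIR) depletes blood cells, lymphocytes first.

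To assess EV cargo after radiation, EV RNA was compared between 3 groups of young adult female C57BL/6J mice. The sham group (n = 4) was not irradiated, the 2 Gy group (n = 5) received 2 Gy of WBIR and the 9 Gy group (n = 5) received 9 Gy, with EVs of the irradiated mice isolated 3 days later. No genetic change or drug was part of the design. The sources used here do not say whether a sample came from 1 mouse or from several, so p-values measure the spread between samples, which may be technical, and EVs are a mixture from many cell types. Fewer EVs from blood cells and less miR-142 per EV cannot be told apart in such samples.

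The mature sequences from RefSeq (assembly GRCm38.p6) are shown because probes for the arms of a single short transcript gave such different counts. Both lie on the plus strand of chromosome 11 in the gene Mir142, the 5p arm at chr11:87756867-87756887 and the 3p arm at chr11:87756903-87756925. Capitals mark the seed, bases 2 to 8, which pairs with target mRNAs. The panel writes the name without the letter a, and it was matched to Mir142 through the synonyms of the gene table.
mmu-miR-142a-5p: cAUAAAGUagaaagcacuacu
mmu-miR-142a-3p: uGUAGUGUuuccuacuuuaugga
The hairpin of 64 bases at chr11:87756864-87756927 is given next, with the arms in capitals.
Mir142 hairpin: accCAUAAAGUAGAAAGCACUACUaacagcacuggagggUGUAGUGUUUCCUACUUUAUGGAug
The longest run in which the 2 arms are complementary is 10 bases. Neither seed is shared with any of the other mature miRNAs in the RefSeq table of 1738. Both arms are poor in G and C, at 33.3% for 5p and 34.8% for 3p, against a median of 52.2% over that table. A second miRNA gene, Mir142b, lies over the hairpin on the opposite strand, and it is the only gene that overlaps Mir142 in the gene table. Its mature product at chr11:87756906-87756925 shares a run of 10 bases with the 5p arm and is complementary to the 3p arm over 20 bases.
mmu-miR-142b: uCCAUAAAguaggaaacacu
The neighbouring genes are Supt4a and Tspoap1. No probe for miR-142b was among the values used here, and whether the 5p probe also counts it was not tested.

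The level over background was examined first. The panel carries 8 negative controls, probes with no target in the sample, whose median was 5 to 9.5 counts per sample. The 5p arm (mmu-miR-142-5p) had 1029, 1022, 909 and 844 counts in the sham samples, 577, 479, 644, 549 and 578 at 2 Gy, and 510, 755, 620, 663 and 684 at 9 Gy. Every one of these lay far above the negative controls. Over all 14 samples 5p was 90.6-fold above the median negative control (6.50 ± 0.40 on the log2 scale, SD), higher in 14 of 14 samples (exact sign-flip permutation test, two-sided p 0.000122, the smallest possible). The highest negative control was NEG_C in every sample, at 27 to 76 counts, and 5p was 9 to 31.3 times that count. miR-142-5p was the only miRNA probe above the highest negative control in all 4 sham samples and the only one above it in all 14 samples. This rests on NEG_C, which stood apart from the other negative controls (9 to 18 counts at most per sample). Without NEG_C 29 of the 599 miRNA probes were above the highest negative control in all sham samples and 14 in all 14 samples. Its rank among the 599 was 1 in each sham sample, 2 or 3 at 2 Gy and 3 in each sample at 9 Gy. These ranks compare probes that can differ in efficiency. The probes ahead of it after WBIR were those for miR-376a and miR-136.

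**Figure D1:**
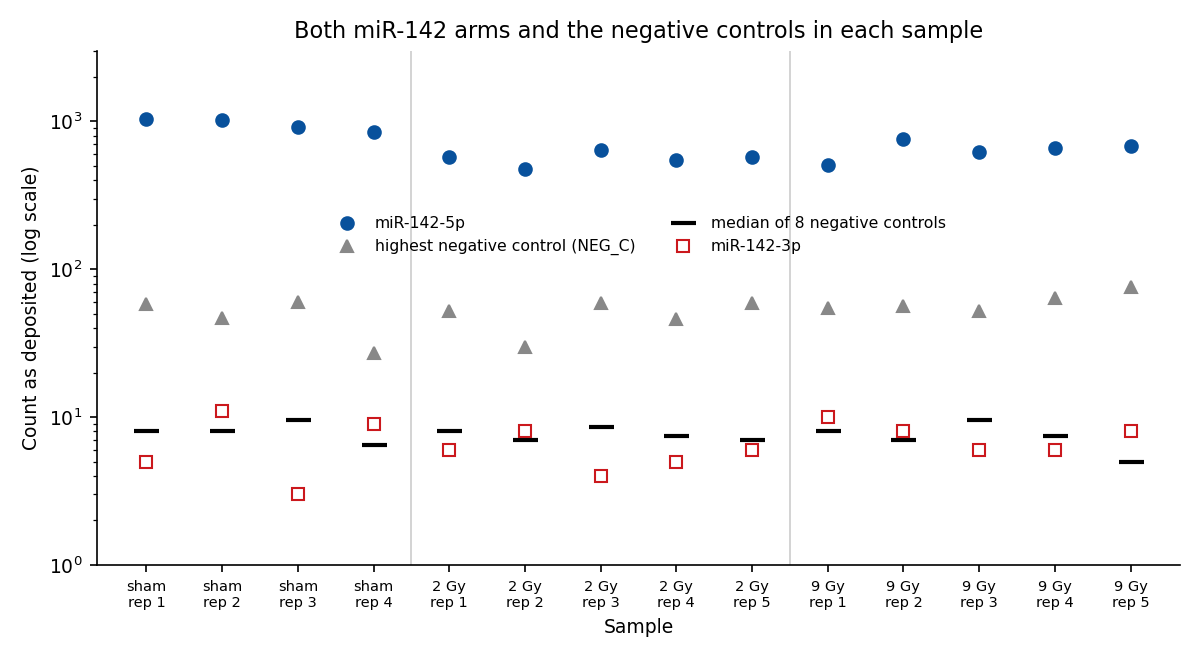
Counts as deposited (log axis) of miR-142-5p, miR-142-3p, the highest negative control and the median of the 8 negative controls in each of the 14 samples. The 5p arm lies between 479 and 1029 counts in all samples, while the 3p arm, at 3 to 11 counts, lies around the median negative control.

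The 3p arm stayed within the range of the negative controls. The counts of mmu-miR-142-3p were 5, 11, 3 and 9 in sham, 6, 8, 4, 5 and 6 at 2 Gy, and 10, 8, 6, 6 and 8 at 9 Gy. It was above the median negative control in 6 samples and below it in 8, with a mean ratio of 0.848 (log2 -0.24, exact sign-flip permutation test, two-sided p 0.209). In no sample did it reach the highest negative control, and 2 to 7 of the 8 negative controls were at or above it. Against the mean of the 3 ligation negative controls the log2 ratio was 0.05 (exact permutation p 0.793). Among the 599 miRNA probes its rank ran from 107 to 511, so its place in the order moved widely with a few counts. The exact 95% Poisson intervals of its counts reached from 0.619 to 19.7 over the samples and cover counting error only. Any 3p signal within the range of the negative controls was not detectable here, which does not show that the EVs lacked the arm.

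The 5p count was far above the 3p count in every sample. The ratio of 5p to 3p counts ran from 51 in 9 Gy replicate 1 to 303 in sham replicate 3, with a geometric mean of 107 (6.74 ± 0.66 on the log2 scale, SD, n = 14, exact sign-flip permutation p 0.000122, the smallest possible). Since 3p counts are at background and probes differ in efficiency, this is a ratio of probe counts rather than of molecules, and it does not measure the balance of the arms. By group the mean ratio was 174 (SD 101) for sham, 105 (SD 36.6) for 2 Gy and 88.9 (SD 23.2) for 9 Gy. The groups overlapped, and the log2 ratio differed from sham by -0.62 at 2 Gy (exact permutation p 0.214, adjusted 0.321 over 3 comparisons) and by -0.83 at 9 Gy (exact permutation p 0.143, adjusted 0.321), values that carry the background counts of the 3p probe. With the median negative control subtracted they were -0.03 (exact permutation p adjusted 0.952) and -0.36 (adjusted 0.774).

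Both doses were then compared with sham for the 5p arm, beginning with the counts as deposited. The 4 sham samples averaged 951 counts (SD 90.1), the 5 samples of the 2 Gy group 565.4 counts (SD 59.6) and those of the 9 Gy group 646.4 counts (SD 90.5). The lowest sham sample, at 844, lay above the highest irradiated sample, at 755, so sham did not overlap with either dose. Relative to sham, the geometric mean was 0.594 at 2 Gy and 0.676 at 9 Gy. By a two-sided exact permutation test p was 0.00794 at either dose, which is as small as 4 against 5 samples allow (adjusted 0.0119 over 3 comparisons). Among the 176 probes with a mean of at least 10 counts, 2.27% were lower than sham without overlap at 2 Gy and 0.568% at 9 Gy. At 9 Gy the latter was miR-142-5p alone, and at 2 Gy it stood with mghv-miR-M1-4, miR-668 and miR-669i, whose sham means were 12.3 to 25.5 counts. Probes near the negative controls in sham have little room to fall, which limits these shares. The coefficient of variation of the unscaled 5p counts was 9.47% in sham, 10.5% at 2 Gy and 14.01% at 9 Gy. This was wider than counting error alone gives (3.24%, 4.21% and 3.93%), but it narrowed when control probes were used for scaling (below).

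Scaling by trimmed mean of M values (TMM), which sets the bulk of probes equal between samples, gave the same direction with the doses in the other order. Scaled counts of 5p were 877, 982, 907 and 1121 in sham, 598, 583, 691, 641 and 621 at 2 Gy, and 534, 653, 563, 571 and 524 at 9 Gy. Again no irradiated sample reached a sham sample. By edgeR's quasi-likelihood test with Benjamini-Hochberg adjustment, the log2 fold change of 5p at 2 Gy was -0.63 ± 0.09 (SE, adjusted p 3.35e-08, 95% interval -0.81 to -0.45), which is 0.645 of the sham level. At 9 Gy it was -0.77 ± 0.09 (SE, edgeR adjusted p 8.34e-11, 95% interval -0.95 to -0.59), which is 0.586 of the sham level. Of the 176 tested probes 14.8% passed at 2 Gy and 17% at 9 Gy in either direction, and 1.7% and 1.14% passed as lower than sham. Probes near the negative controls have little room to fall, and without NEG_C 29 of the 599 were above background in all sham samples. The share also turned with the scaling, as 94 probes at 2 Gy and 130 at 9 Gy passed as lower under total count scaling. The median log2 fold change of all tested probes, which TMM holds near 0, was 0.05 at 2 Gy and 0.01 at 9 Gy. In order of p, 5p stood 9th at 2 Gy and 6th at 9 Gy. The 2 comparisons share the sham samples. Left out in turn, none of the 14 samples ended either call, with log2 fold changes of -0.68 to -0.56 at 2 Gy and -0.83 to -0.70 at 9 Gy. With the median negative control subtracted from the counts the log2 fold changes were -0.66 and -0.72. The calls were lost there (edgeR adjusted p 0.165 and 0.109), at an SE of 0.29 in place of 0.09. That fit also left out the trend of spread with abundance and robust estimation, so it does not test the subtraction alone. In an exact permutation test per probe the log2 differences were -0.63 and -0.77 (adjusted p 0.0822 and 0.0559 over the 176 probes). There p for 1 probe cannot go below 0.00794.

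**Figure D2:**
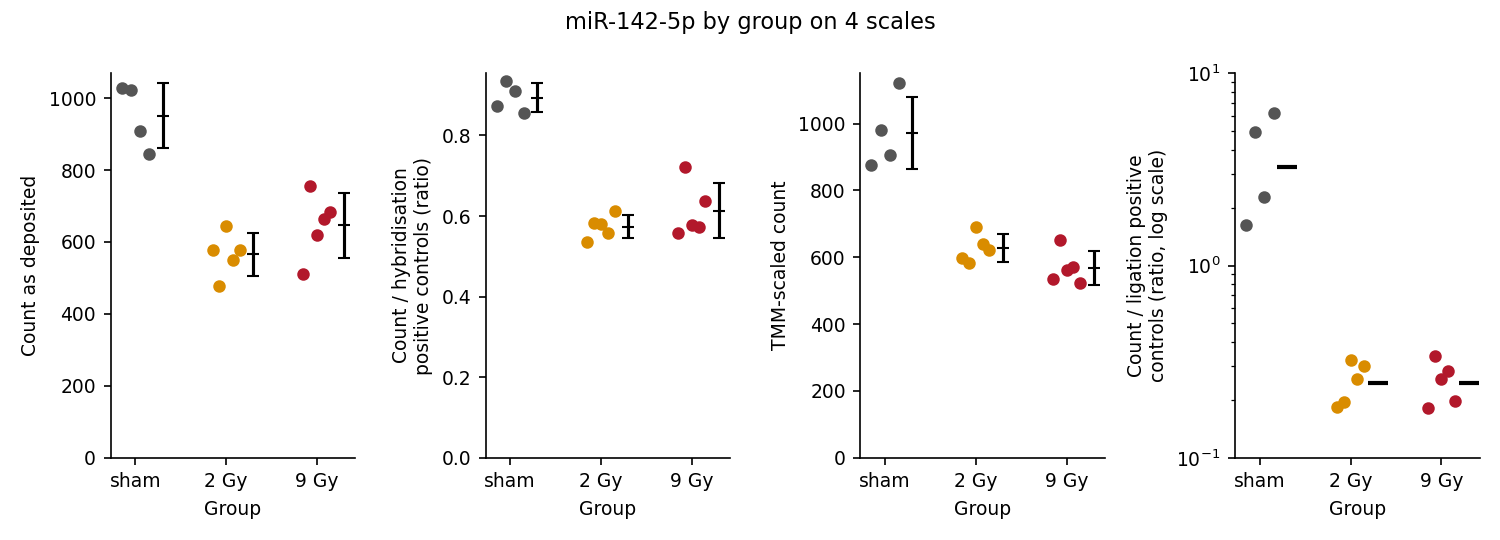
miR-142-5p per sample (points) in sham (n = 4), 2 Gy (n = 5) and 9 Gy (n = 5) as deposited counts, as a ratio to the hybridisation positive controls, as TMM-scaled counts and, on a log axis, as a ratio to the ligation positive controls. Black bars are the mean ± SD in the first 3 panels and the geometric mean in the last; sham does not overlap with either dose on any of the 4 scales.

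The doses did not separate from each other. As deposited, the order was sham, then 9 Gy, then 2 Gy, and 9 Gy was 1.14-fold above 2 Gy with overlapping samples (exact permutation p 0.151). Without 9 Gy replicate 1, the lowest of its group, that difference was 0.27 on the log2 scale (exact permutation p 0.0238, adjusted 0.0286 over 3 comparisons). After TMM scaling the order was sham, then 2 Gy, then 9 Gy, with a log2 difference of -0.14 ± 0.09 between the doses (SE, adjusted p 0.538 by edgeR, 95% interval -0.31 to 0.03). None of the 176 probes (0%) passed between the doses by edgeR, 20 had an unadjusted p under 0.05, DESeq2 called 1 and limma-voom called 0. The direction between the doses thus turned with the scaling. Total miRNA counts also differed, at 4781 to 6926 in sham, 8019 to 10455 at 2 Gy and 11518 to 20150 at 9 Gy. The share of miRNA counts taken by 5p was 15.9% for sham (SD 1.30), 6.31% for 2 Gy (SD 1.04) and 4.69% for 9 Gy (SD 1.08). With miR-376a and miR-136, the probes with the highest counts after WBIR, taken out of the total, it was 16.0% (SD 1.28), 10.1% (SD 0.80) and 9.28% (SD 1.01), still without overlap between sham and either dose (exact permutation p 0.00794 in both comparisons).

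For the 3p arm no difference between groups was found, with intervals that include the size seen for 5p. It averaged 7.0 counts in the sham group (SD 3.65), 5.8 in the 2 Gy group (SD 1.48) and 7.6 in the 9 Gy group (SD 1.67). It was under the count minimum and was therefore fitted together with all 599 probes, of which 4.17% passed at 2 Gy and 4.84% at 9 Gy. The log2 fold change was -0.13 ± 0.39 at 2 Gy (SE, edgeR adjusted p 0.967, 95% interval -0.90 to 0.63) and -0.08 ± 0.37 at 9 Gy (SE, edgeR adjusted p 0.977, 95% interval -0.80 to 0.64). Both intervals hold 0 as well as the fold change of the 5p arm at the same dose. At background a fold change of the counts does not measure a fold change of the miRNA.

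The relation to the control probes was examined next, because the groups differed in it. Ligation positive controls are synthetic templates added to the reaction that joins each miRNA to its tag. Their geometric mean was 136 to 634 counts in sham, 1935 to 3121 at 2 Gy and 2231 to 3463 at 9 Gy, so that no sham sample reached the lowest irradiated one. 5p went the opposite way. The ratio of 5p to these controls was 1.62, 4.92, 2.27 and 6.19 in sham, and 0.182 to 0.338 in the 10 irradiated samples. It was 13.3-fold lower than sham at either dose (log2 -3.73, exact permutation p 0.00794, adjusted 0.0119). Between the doses the log2 difference was -0.0003 (exact permutation p 1). On the log2 scale the ligation controls were 2.98 higher at 2 Gy and 3.17 higher at 9 Gy than in sham, and the 5p counts made up the rest (-0.75 and -0.56). In sham, where the ligation controls varied 4.65-fold between the lowest and the highest sample, 5p varied 1.22-fold, so its count did not move in proportion to them. Sham replicate 1 was highest and sham replicate 4 lowest in both, which with 4 samples is a description. For the next 2 fits, unlike the ratio above, the median negative control was subtracted from the ligation controls, but not from the miRNA counts. With counts scaled to the ligation controls, the log2 fold change of 5p was -4.04 at both doses, against a median over all tested probes of -3.13 at 2 Gy and -3.05 at 9 Gy. With the ligation level as a covariate 5p was at -0.12 ± 0.17 (SE, edgeR adjusted p 0.901) at 2 Gy and -0.23 ± 0.17 (SE, edgeR adjusted p 0.855) at 9 Gy. That fit extends across levels that sham and irradiated samples do not share, so the ligation level and the group cannot be told apart.

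**Figure D3:**
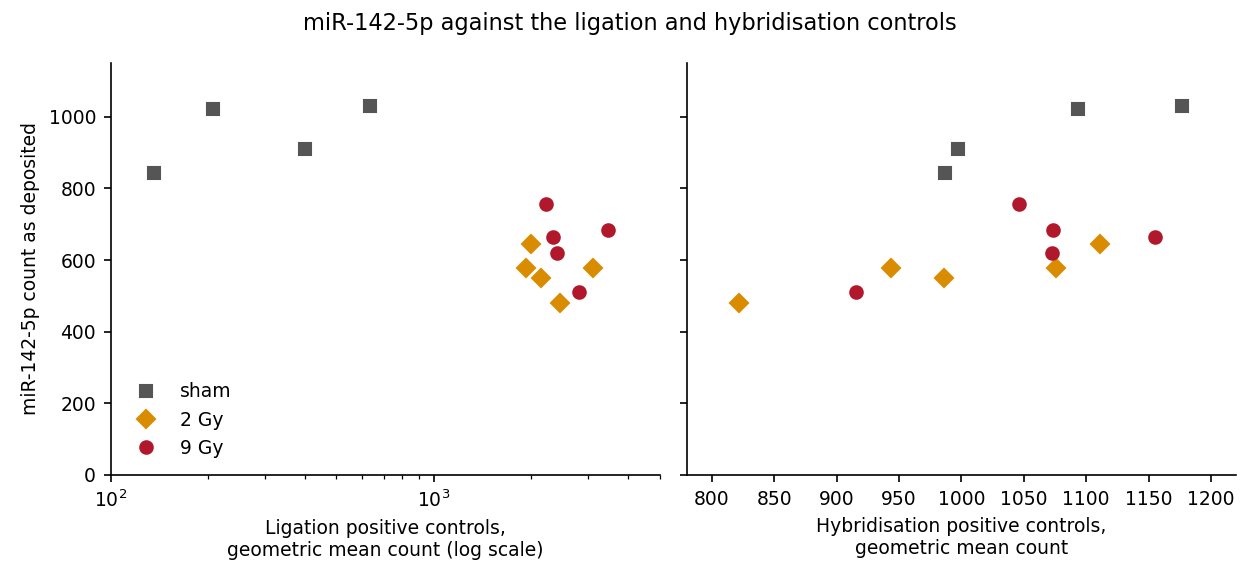
Count of miR-142-5p in each sample against the geometric mean of the ligation positive controls (left, log axis) and of the hybridisation positive controls (right), with squares for sham, diamonds for 2 Gy and circles for 9 Gy. Sham samples lie at 136 to 634 ligation counts and irradiated samples at 1935 to 3463, whereas the groups overlap on the hybridisation axis.

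Another set of control probes, the hybridisation positive controls, binds spiked DNA of known amount and reports binding and imaging. Its geometric mean ranged from 822 to 1177 counts over the 14 samples, and the groups overlapped. Dividing by them narrowed the groups. The ratio of 5p to these controls was 0.874, 0.935, 0.912 and 0.855 in sham, 0.536 to 0.612 at 2 Gy and 0.557 to 0.722 at 9 Gy. It was lower than sham by a log2 difference of -0.64 at 2 Gy and -0.55 at 9 Gy, with no overlap (exact permutation p 0.00794 in both comparisons). By that ratio 1.7% of the 176 probes lay below sham without overlap at 2 Gy and 0.568% at 9 Gy. When all probes were scaled to the hybridisation controls and fitted together, the fall at 2 Gy passed (log2 -0.64, edgeR adjusted p 0.0258) and the fall at 9 Gy did not (log2 -0.54, edgeR adjusted p 0.0563). That fit carried a larger error, 0.20 (SE) in place of 0.09.

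Within the 10 irradiated samples, where both doses had similar ligation levels, relations were computed on log2 counts with the dose means removed, 5 in all, by 100000 permutations within dose. Between 5p and the ligation controls Pearson r was -0.26 (permutation p 0.489, adjusted 0.489) and Spearman rho -0.47 (permutation p 0.187). Once the 2 samples with the most extreme ligation levels were dropped, r was -0.92 (permutation p 0.00531), so the relation changed with those samples. It was -0.71 on TMM-scaled counts (permutation p adjusted 0.0922) and -0.03 with the dose means kept (adjusted 0.928). Among the 176 tested probes, as a description, 145 had a higher r with the ligation controls than 5p and 30 a lower one, around a median of 0.11. With the hybridisation controls 5p had r 0.76 (permutation p 0.0151, adjusted 0.0377) and rho 0.56 (permutation p 0.0958). It rested on the 2 samples farthest in hybridisation level, since without them r was 0.22 (permutation p 0.615), and it was 0.43 on TMM-scaled counts (adjusted 0.257). For that relation 7 probes had a higher r and 168 a lower one, around a median of 0.20. The 3p arm had r 0.45 with the ligation controls (permutation p 0.226, adjusted 0.282) and rho 0.39 (permutation p 0.296). When the 2 samples farthest in ligation level were dropped, its r was 0.67. With the hybridisation controls the 3p arm had r -0.84 (permutation p 0.0075, adjusted 0.0375) and rho -0.78 (permutation p 0.0145). Without the 2 samples farthest in hybridisation level r was -0.58 (permutation p 0.223), and with the dose means kept it was -0.48 (adjusted 0.270). It was -0.92 on TMM-scaled counts (permutation p adjusted 0.0046). With hybridisation control scaling, where these controls are also the divisor, it was -0.92 (adjusted 0.00575). The 3p counts in these samples are whole numbers from 4 to 10. The 2 arms with each other gave r -0.60 (permutation p 0.0775, adjusted 0.129) and rho -0.34 (permutation p 0.346). Without the 2 samples farthest in 5p count r was 0.08. With 3p at background these values do not bear on whether the arms move together.

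Other miRNAs known from leukocytes were read beside miR-142-5p. A list of miRNAs known from leukocytes, the miR-142 arms included, had 18 probes, of which 11 had a mean of at least 10 counts. At 2 Gy miR-142-5p was the only one of these to pass, and at 9 Gy it passed with miR-155. Over all 176 tested probes the share that passed was 14.8% and 17%, and 1.7% and 1.14% passed as lower, so the number of list members called is read as no result about the list. The median log2 fold change of the 11 was 0.04 at 2 Gy and -0.15 at 9 Gy, against 0.05 and 0.01 over all 176 probes. Apart from 5p, a count above the highest negative control was reached by miR-155 and by the probe for miR-20a and miR-20b, each in 1 sample. Without NEG_C, 4 of the 18 probes were above the highest remaining negative control in all 4 sham samples, namely 5p, miR-342-5p, miR-19b and the probe for miR-20a and miR-20b. Summed over the list without 5p, counts ran from 168 to 249 in sham, 167 to 193 at 2 Gy and 197 to 533 at 9 Gy.

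Several members with well-known roles in leukocytes had means close to those of the negative controls. miR-223, abundant in neutrophils, had mean counts of 8.75 in sham, 12.8 at 2 Gy and 13.4 at 9 Gy. miR-150, a miRNA of mature lymphocytes, had 11, 10.8 and 11.8 in the same order. Neither passed at either dose. miR-146a and miR-146b, induced by NF-κB signalling, had means between 10.8 and 14.4 counts, and miR-342-5p had 17.8, 13 and 17.4. Of the miR-17 family and its cluster, which promote proliferation of lymphocytes, the probe for miR-106a and miR-17 had 19.3, 12.8 and 13.4 counts (log2 -0.72 at 9 Gy, edgeR adjusted p 0.0536). miR-19a had 12.3, 11.4 and 12.6 counts, miR-19b had 26.8, 22.4 and 21, and the probe for miR-20a and miR-20b had 43.5, 31.6 and 37.8. These last 2 were the highest of the list after 5p in sham. miR-155, induced in activated leukocytes, was listed at 1 count, the smallest value in the table, in every sham and 2 Gy sample and at 1 to 307 counts at 9 Gy. Its call at 9 Gy (edgeR adjusted p 0.0474) failed in 11 of the 14 fits without 1 sample, with adjusted p up to 0.119.

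**Figure D4:**
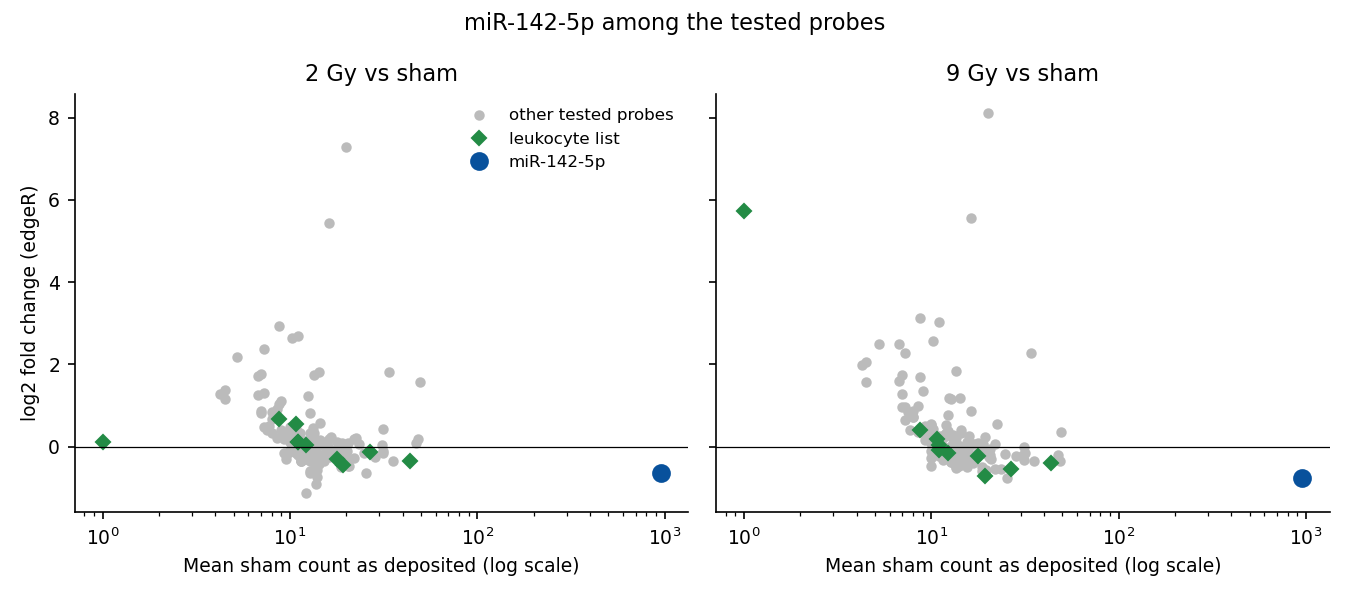
Fitted log2 fold change against sham (edgeR) over the mean sham count as deposited (log axis) for the 176 tested probes at 2 Gy (left) and 9 Gy (right). miR-142-5p, at a mean of 951 counts, lies far to the right of all other probes and below 0 in both panels, while the other leukocyte miRNAs lie among the remaining probes apart from miR-155 at 9 Gy.

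Markers of other sources of plasma RNA were read beside this. The red cell list had 5 probes, summing to 49 to 108 counts in sham, 58 to 358 at 2 Gy and 71 to 232 at 9 Gy. Within it miR-451, the erythroid miRNA that marks haemolysis, had 25 to 71 counts in sham, 21 to 252 at 2 Gy and 17 to 138 at 9 Gy. miR-16 rose at 2 Gy (log2 1.81 ± 0.40, SE, edgeR adjusted p 0.00459), from a mean of 14.3 to 45 counts. miR-15a, its cluster partner, passed at both doses (log2 0.85 at 2 Gy and 0.87 at 9 Gy, edgeR adjusted p 0.0306 and 0.0167), although its call failed in 5 of 14 fits without 1 sample at 2 Gy (adjusted p up to 0.139) and in 2 of 14 at 9 Gy (adjusted p up to 0.0835). miR-16 at 9 Gy (log2 1.17, edgeR adjusted p 0.0619), miR-451 and miR-486 did not pass. With TMM scaling most probes called against sham were higher (13.1% of the 176 at 2 Gy and 15.9% at 9 Gy). Under total count scaling 12 were higher and 94 lower at 2 Gy, and 15 higher and 130 lower at 9 Gy. The direction of the red cell calls is therefore read as no result about the list, and the part of the list in the fall of 5p was not tested. The platelet and endothelium list, 6 probes with miR-126 among them, summed to 23 to 38 counts in sham, 23 to 42 at 2 Gy and 27 to 47 at 9 Gy, and the liver list of 3 probes with miR-122 summed to 8 to 17 counts over all samples. The muscle list of 5 probes summed to 39 to 64 and the brain list of 6 probes to 35 to 71. No probe of these last 4 lists was above the highest negative control in any sample.

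The probes with the pattern most like that of 5p had low counts. Likeness was the Pearson r of log2 TMM-scaled counts over the 14 samples, which includes the difference between sham and irradiated samples and is given as a description. The 5 highest were mghv-miR-M1-4 at 0.78, the probe for miR-20a and miR-20b at 0.74, miR-337-5p at 0.74, miR-883a-5p at 0.69 and miR-429 at 0.66. Their mean counts were 11.3 to 37.2, in contrast to 704.5 for 5p. The highest was the probe for miR-20a and miR-20b, above all negative controls but NEG_C in every sham sample. The others, at 11.3 to 18.8, were near the negative controls. Of the 5, mghv-miR-M1-4, which targets a miRNA of a mouse herpesvirus, also passed as lower at 9 Gy (log2 -0.75, edgeR adjusted p 0.0187). It failed without sham replicate 2 (adjusted p 0.0888) or 9 Gy replicate 3 (adjusted p 0.0636). The 5 most opposite were miR-2183 at -0.98, miR-297c at -0.97, miR-376a at -0.97, miR-664 at -0.95 and miR-136 at -0.94, all of which were higher than sham at both doses by edgeR. They were picked by this r, so the values describe the choice.

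The size of the fall depended on the scaling more than on the test. Under total count scaling the log2 fold change of 5p was -1.33 at 2 Gy and -1.76 at 9 Gy, where the median of all tested probes was itself -0.66 and -1.02. Relative to the 100 highest miRNA probes it was -1.06 and -1.26, against medians of -0.37 and -0.48. In each of these the 5p arm lay below the bulk of probes. With DESeq2 it was -0.63 and -0.76, and with limma-voom -0.62 and -0.76. None of the 17 alternatives tried for either comparison with sham turned the sign of 5p.

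**Figure D5:**
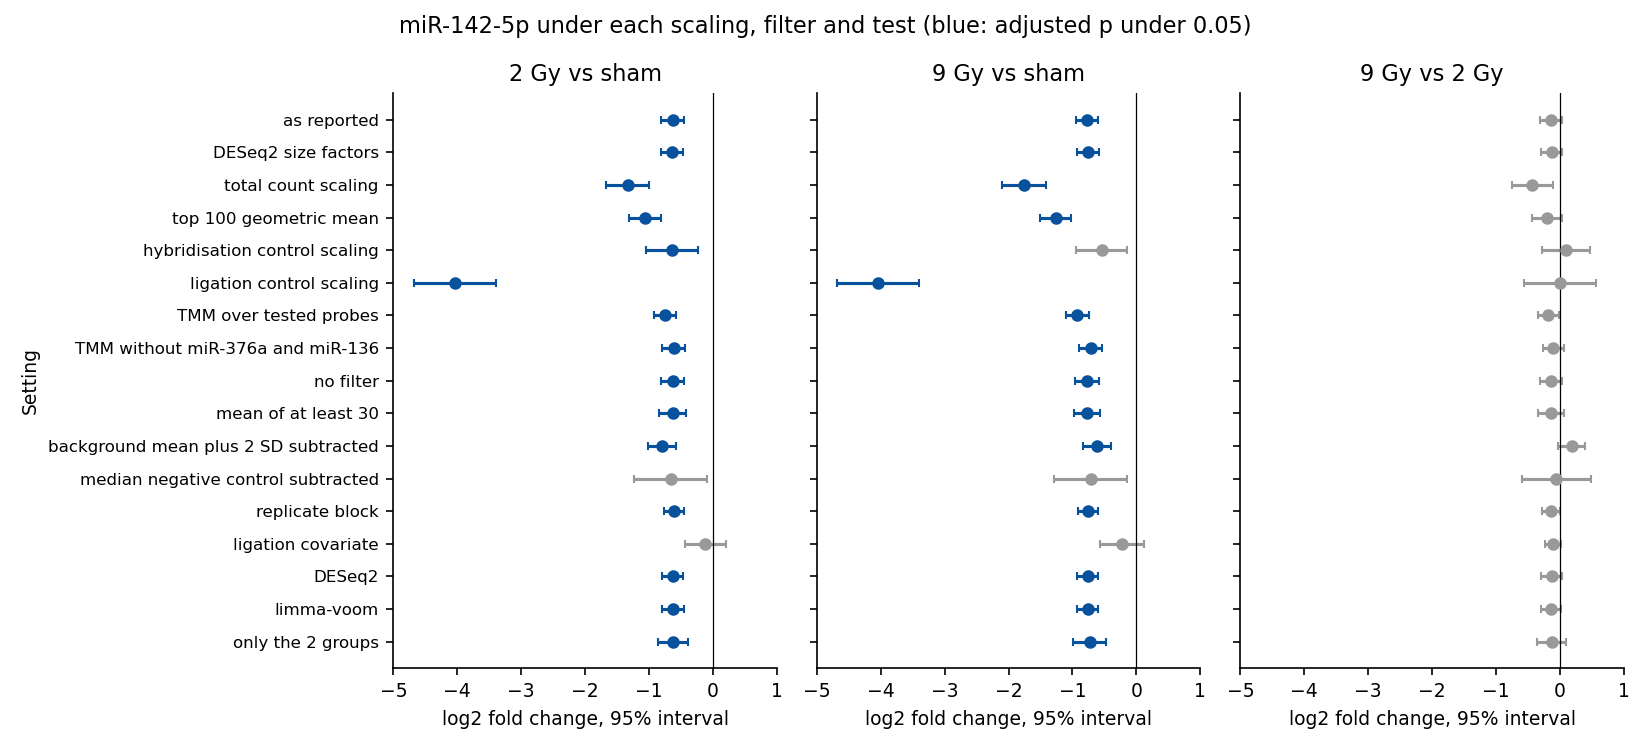
Log2 fold change of miR-142-5p with its 95% interval for each comparison (panels) under each scaling, filter, background correction and test (rows), blue where the adjusted p was under 0.05 and grey elsewhere. All values against sham lie below 0, from -4.04 with ligation control scaling to -0.12 (2 Gy) and -0.23 (9 Gy) with the ligation covariate, and values between the doses lie on both sides of 0.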

How the data were processed

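RNA of plasma EVs from 14 samples was measured by the authors with the nCounter mouse miRNA panel from a fixed mass of RNA. The assay ligates a tag to each miRNA, hybridises it to a barcoded probe and counts barcodes. The deposited values are whole-number counts per probe. Control probes are present and differ between samples, so neither control scaling nor subtraction was apparent. No value was 0 and 362 of 8764 equalled 1, and the sources used here do not say if zeros were written as 1, so a 1 may stand for 0. EVs were pelleted by differential centrifugation, and the authors used nSolver for their own analysis. Groups follow the sample labels.

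Library sizes and TMM factors were computed over the 599 miRNA probes. The 176 probes with a mean of at least 10 counts were fitted with all 3 groups by edgeR 4.0.16 (quasi-likelihood, robust, R 4.3.3), two-sided, with Benjamini-Hochberg adjustment over the 176 and a threshold of 0.05. The 3p arm came from the same fit over all 599 probes. Single values were compared by exact permutation of log2 values, which cannot go below p 0.00794 for 4 against 5 samples. Arms were set against negative controls by an exact sign-flip test. On simulated counts with log2 changes of 2, the fit recovered 99% of 100 changed probes for 2 Gy versus sham among 257 tested, with 2.94% false calls, and 98% for 9 Gy versus sham, with 3.92% false calls. Those changes were larger than that of 5p, went in both directions, and came without a difference in ligation controls between groups. The simulation therefore does not test the fit for a change of the size seen for 5p. By a chi-square test, the counts of all 26 pairs of replicates differed over all probes, control probes included, but only 18 pairs differed over the miRNA probes alone. The other 8 were all 6 sham pairs (chi-square p 0.182 to 0.904) and 2 pairs of the 2 Gy group, whose control probes differed. Control probes report the assay, so this does not show that these samples held separate RNA. Every sample was kept as a replicate, and the tests treat the samples as independent. Total miRNA counts of 4781 to 20150 limit precision near background, and Poisson intervals cover counting error only, whereas edgeR intervals include the spread between samples.

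The members, lists and tests were chosen with earlier results of these data known. The text names both arms, the 5 probes most like and the 5 most opposite to 5p, probes above the highest negative control in all sham samples, and leukocyte list probes with a mean of at least 10 counts. Other probes were named after their values were seen. The relations with the hybridisation controls and between the arms, the share without miR-376a and miR-136, and the counts above background without NEG_C, were added after seeing the data. Alternatives were other scalings (DESeq2 1.42.0 size factors, total, top 100, hybridisation and ligation controls, TMM variants), filters, background subtraction, a replicate block, a ligation covariate, limma-voom (limma 3.58.1), DESeq2, exact permutation per probe, fits of only the groups compared, and each sample left out. The fits with background subtraction or a mean of at least 30 counts also left out the trend of spread with abundance and robust estimation. In the fits with ligation scaling or the ligation covariate, the median negative control was subtracted from the ligation controls only. Sequences and gene neighbours are from RefSeq tables. Figures used matplotlib 3.10.9.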

Additional observations from a re-analysis of the deposited data

How the results depend on the processing

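The fall of miR-142-5p against sham kept its sign under all 17 alternatives and passed under 14 of them at 2 Gy and 13 at 9 Gy. At 2 Gy it did not pass with the median negative control subtracted (log2 -0.66, adjusted p 0.165), with the ligation covariate (-0.12, adjusted p 0.901) or by exact permutation per probe adjusted over the tested probes (-0.63, adjusted p 0.0822). At 9 Gy it did not pass with the same 3 (-0.72, -0.23 and -0.77, adjusted p 0.109, 0.855 and 0.0559) or with hybridisation control scaling (-0.54, adjusted p 0.0563). The fit with the median negative control subtracted also left out the trend of spread with abundance and robust estimation. The causes were not tested. Samples left out gave -0.68 to -0.56 at 2 Gy and -0.83 to -0.70 at 9 Gy, all past the threshold.

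Between the doses 5p turned positive with hybridisation control scaling (log2 0.10), ligation control scaling (0.0013) and background mean plus 2 SD subtracted (0.19), none past the threshold, and ran from -0.19 to -0.09 with samples left out. As deposited, this difference turned to -0.13 as a share of counts without miR-376a and miR-136 and ran from 0.13 to 0.27 with samples left out. Relative to the ligation controls it turned to 0.0010 with the median negative control subtracted, 0.030 against LIG_POS_B alone and 0.0074 against LIG_POS_C alone. For 3p, 9 Gy versus sham turned to 0.13 with hybridisation control scaling and 0.26 in counts as deposited, and samples left out gave -0.38 to 0.14 at 2 Gy, -0.31 to 0.20 at 9 Gy and -0.12 to 0.23 between doses, none past the threshold. Against the mean and the highest negative control 3p was lower (log2 -1.01 and -2.999, exact permutation p 0.000244 and 0.000122), and against the ligation negative controls it was at 0.050.

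Samples left out gave, for 5p as deposited, -0.81 to -0.69 and -0.62 to -0.48 against sham, for 5p over the ligation controls -4.07 to -3.42 at each dose and -0.12 to 0.11 between doses, and for the ratio of the arms -0.85 to -0.29, -1.07 to -0.50 and -0.40 to -0.02. The relation of 5p to the ligation controls was -0.92 without the 2 samples farthest in ligation level. That to the hybridisation controls turned to -0.067 with hybridisation scaling, and that of the arms turned to 0.11 with this scaling. Without the 2 samples farthest in 5p count that of the arms turned to 0.080.

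Counts of probes called moved by over 1.5 times from 26 at 2 Gy with total count scaling (106, 12 higher and 94 lower), the top 100 (49, 15 higher and 34 lower), ligation control scaling (169, 2 higher and 167 lower), a mean of at least 30 counts (10), background mean plus 2 SD (5), the ligation covariate (3) and limma-voom (17). At 9 Gy they moved from 30 to 145 (15 higher and 130 lower), 75 (21 higher and 54 lower), 167 (2 higher and 165 lower), 11, 6 and 3 under the first 6 of these, and TMM over the tested probes gave 23 higher and 10 lower. Between the doses 0 became 7 with total count scaling, 12 with hybridisation scaling, 3 with the median negative control subtracted, 3 with the block and 1 with DESeq2. Samples left out gave 20 to 26, 26 to 32 and 0 to 3 calls. The replicate numbers did not pair the samples (correlations of deviations from -0.089 to 0.16). With the replicate number as a block 5p was at -0.61, -0.75 and -0.14 and 3p at -0.10, -0.06 and 0.04, with no call of either arm changed. Counts of the 3p arm lie within the negative controls, which limits what can be read from its fold changes.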
